A study of Mus musculus with 12 samples.

Results

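A set of 5 genes whose ATRA difference changed sign with restimulation is described: Rasgrp2, Pik3ip1, Ppp2r2c, Cdh1 and Sema4f. They were taken from 12771 named gene symbols that were present in both count tables, with predicted, clone-named and pseudogene symbols left out. A gene was taken when its mean level in cells that had been expanded with ATRA was at least 2 log2 units above the control mean without restimulation and at least 2 log2 units below it with restimulation. Levels are CPM (counts scaled to the total of their library), the log2 ratio of 2 group means was taken after adding 0.5 CPM to each, the higher mean of a state had to reach 5 CPM, and the libraries of both groups could not overlap in either state. In all, 8 genes met these numbers, which is 0.0626% of the 12771, and 3 of them, Cxcr4, S1pr1 and Pygl, were left out by name, so that 5 genes remained. The genes were thus chosen by their levels in all 12 libraries, and their ATRA differences are given as a description and without a test.

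The libraries came from CD8+ T cells of the spleen of OT-I mice, which carry a transgenic T cell receptor for an ovalbumin peptide. All-trans retinoic acid (ATRA), a derivative of vitamin A and the ligand of the RAR nuclear receptors, was present at 5 ng/mL during expansion with antibodies against CD3e and CD28 and with IL-2, and the control cells (CTRL) received the same volume of the solvent DMSO. All cells were then cultured for 5 days and placed for 72 h at 1% oxygen with GL261, a mouse glioma line that carried ovalbumin, with no ATRA or DMSO added. Live CD45.2+ cells were sorted at that point (3 CTRL and 3 ATRA libraries, here "without restimulation") or after 24 h of further stimulation through CD3e (3 CTRL and 3 ATRA libraries, "with restimulation"). This is an in vitro model of exhaustion, and the labels do not give the strain, age or number of the mice, so the spread between libraries may be technical.

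The 5 genes belong to different steps of T cell signalling and contact. Rasgrp2 encodes CalDAG-GEFI, a calcium-regulated exchange factor that loads the small GTPase Rap1 with GTP, a step that switches integrins to their adhesive form. Pik3ip1 encodes a membrane protein that restrains class I phosphoinositide 3-kinase (PI3K), the lipid kinase downstream of the T cell receptor and CD28, and Ppp2r2c encodes a regulatory subunit of the B55 family of protein phosphatase 2A, a phosphatase that removes phosphates from many signalling proteins. Cdh1 encodes E-cadherin, the adhesion molecule of epithelial junctions and a ligand of the integrin CD103 and of the receptor KLRG1, and Sema4f encodes a class 4 semaphorin, a membrane-bound guidance protein whose relatives bind plexins. Rasgrp2 and Pik3ip1 are known as genes of resting, recirculating T cells that are turned down by activation.

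Start-site sequences are shown as a description. The shared direction of the 5 genes follows from the rule that chose them, and shared control was not tested. The RefSeq promoter table (GRCm38.p6) held 4 of the 5 genes, Cdh1 being the other. Of the 250 bases before each start, only stretches outside annotated exons are printed, 5′ to 3′ on the strand of the gene. They are the 250 bases of Ppp2r2c (chr5:36868260-36868509, plus strand), the 250 bases of Sema4f (chr6:82939770-82940019, minus strand) and 121 bases of the first Rasgrp2 start (chr19:6399625-6399745, plus strand). The windows of Pik3ip1 and of a second Rasgrp2 start lay wholly within annotated exons. The bases just after the Ppp2r2c start were not found near the start of any annotated transcript of that gene. For each other window such bases were found in 2 or 3 transcripts. Capitals mark matches, on either strand, to the letters searched below.
Ppp2r2c: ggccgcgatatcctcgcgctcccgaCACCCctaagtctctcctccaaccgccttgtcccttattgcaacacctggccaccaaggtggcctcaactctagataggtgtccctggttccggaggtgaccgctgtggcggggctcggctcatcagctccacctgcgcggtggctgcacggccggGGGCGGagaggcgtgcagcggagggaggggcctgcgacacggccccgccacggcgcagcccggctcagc
Sema4f: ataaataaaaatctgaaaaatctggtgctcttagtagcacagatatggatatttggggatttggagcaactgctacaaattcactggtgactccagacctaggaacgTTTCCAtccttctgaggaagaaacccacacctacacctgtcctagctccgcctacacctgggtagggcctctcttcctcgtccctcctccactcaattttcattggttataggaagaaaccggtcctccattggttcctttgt
Rasgrp2: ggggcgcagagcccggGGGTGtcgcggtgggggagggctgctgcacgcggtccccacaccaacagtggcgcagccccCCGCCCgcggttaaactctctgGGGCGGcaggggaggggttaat

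A set of 7 motifs was searched on both strands of the full 250 base windows. The KLF letters CACCC were found before 3 of the 4 genes, Rasgrp2, Pik3ip1 and Ppp2r2c, and before 52.0% of the 32851 promoters in the table. The SP1 box GGGCGG was found before Rasgrp2 and Ppp2r2c and before 32.7% of promoters. The NFAT letters TGGAAA were found before Pik3ip1 and Sema4f and before 18.6% of promoters. No match was found before the 4 genes for the FOXO letters GTAAACA (3.17% of promoters), the nuclear receptor letters AGGTCA (14%), the hypoxia core ACGTG (16.6%) or the AP-1 letters TGANTCA (6.75%). No motif was before all 4 genes, and matches of different motifs did not overlap. The share of G and C ran from 46% for Sema4f to 79.6% for the first Rasgrp2 start, with a median of 52.4% over all promoters. These are matches of letters in a window, not sites of binding.

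Some facts of the whole series bear on the values. Library totals ran from 23558244 to 26111497 counts in the first state and from 16288111 to 20115836 in the second, so that 3 counts were worth 0.115 to 0.184 CPM. CTRL library 1 and ATRA library 3 without restimulation stood apart from their groups (correlation of log2 CPM across genes with the other libraries of the group 0.981 and 0.983, and 0.945 and 0.962, against 0.996 and 0.993 for the other pairs). The sum of the T cell genes, Cd3 chains and Cd8 included, ran from 3199 to 4586 CPM in every library and Cd4 was at most 1.23 CPM. Sums of several marker lists of other cells moved with ATRA. The 10 genes of CD4 and regulatory T cells summed to between 688 and 709.5 CPM in CTRL and between 1002 and 1189 CPM in ATRA libraries without restimulation, and to between 477 and 513 CPM and between 718 and 783 CPM with it. The GL261 genes (18 of 30 in the table without restimulation) lay between 1223 and 1352 CPM in CTRL and between 1541 and 1663 CPM in ATRA libraries without restimulation, and between 1059 and 1238 CPM and between 1502 and 1597 CPM with it, where 14 of 30 in each group held at most 3 counts in each library, not all of them the same genes but with Gfap, Sox2 and Olig2 in both groups. With restimulation the 16 monocyte and macrophage genes lay between 302 and 476 CPM in CTRL and between 89.0 and 109 CPM in ATRA libraries (Csf1r and Lyz2 at 3 counts or fewer in each), the 11 NK cell genes between 548 and 733 CPM and between 1374 and 1454 CPM (Ncr1 at 3 counts or fewer in each), and the 13 B cell genes between 24.5 and 31.3 CPM and between 57.5 and 64.7 CPM. Genes within most lists did not move alike. Of 9 tested CD4 and regulatory genes, 4 rose and 3 fell without restimulation (edgeR adjusted p under 0.05). With it, 4 of 8 rose and 1 fell. Of the GL261 genes 4 of 8 rose and 3 fell, then 7 of 11 rose and 1 fell. With restimulation, 2 of 5 monocyte and macrophage genes rose and 2 fell, and 5 of 8 NK genes rose and 1 fell. All 7 tested B cell genes rose there. The lists include Il2ra, Ctla4, Cd44 and Gzma. The part of other cells in the results was not tested. The labels give separate batches for the 2 states and each state has its own table, so state, batch set and table cannot be told apart, and a level set across states is a description. In bulk RNA, fewer cells that express a gene and less RNA per cell cannot be told apart.

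Rasgrp2, the Rap1 exchange factor, was higher with ATRA before restimulation and lower with it afterwards. Without restimulation it was at 3.37, 6.45 and 6.76 CPM in the 3 CTRL libraries and at 62.7, 58.9 and 37.5 CPM in the 3 ATRA libraries. With restimulation it was at 30.03, 30.6 and 34.8 CPM in CTRL and at 0.780, 1.77 and 1.54 CPM in ATRA. Every ATRA library was above every CTRL library in the first state and below every one in the second, so the groups did not overlap in either. The log2 ratio of ATRA to CTRL was 3.15 without restimulation and -4.11 with it. From a mean of 53.03 ± 13.6 CPM (SD, n = 3) before restimulation, the ATRA cells had 1.36 ± 0.519 CPM after it, while the CTRL cells went from 5.52 ± 1.87 to 31.8 ± 2.58 CPM.

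Pik3ip1, the PI3K inhibitor, differed between the groups in the same manner. Without restimulation the CTRL libraries had 3.26, 1.94 and 1.66 CPM and the ATRA libraries 20.5, 17.8 and 16.4 CPM. With restimulation the CTRL libraries had 5.79, 7.80 and 8.79 CPM and the ATRA libraries 0.947, 0.417 and 0.547 CPM. The 3 ATRA libraries without restimulation lay close together and above all others, and the 3 restimulated ATRA libraries lay below all others. The log2 ratio was 2.75 without restimulation and -2.81 with it. The restimulated ATRA level rested on 36 counts over the group, for which the exact Poisson interval (95%, counting error only) was 0.440 to 0.871 CPM.

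Ppp2r2c, the phosphatase subunit, differed from the other 4 genes in the order of its groups. Without restimulation it was at 3.26, 1.62 and 1.54 CPM in CTRL and at 15.9, 17.0 and 11.0 CPM in ATRA. With restimulation it was at 11.2, 12.95 and 22.4 CPM in CTRL and at 3.18, 1.98 and 2.39 CPM in ATRA. The groups of a state did not overlap, but the high groups of both states did, and so did the low ones: the restimulated CTRL cells reached the level of the ATRA cells before restimulation, and the restimulated ATRA cells the level of the CTRL cells before it. The log2 ratio was 2.52 without restimulation and -2.41 with it.

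Cdh1 had the largest ATRA difference of the 5 genes without restimulation and the widest spread between libraries (pooled SD 0.54 and 1.08 log2 units without and with restimulation). Without restimulation the CTRL libraries had 0.689, 0.989 and 0.888 CPM and the ATRA libraries 21.2, 31.6 and 60.4 CPM. With restimulation the CTRL libraries had 2.50, 3.19 and 20.2 CPM and the ATRA libraries 0.223, 0.156 and 0.249 CPM. Restimulated CTRL library 3 was far above the other libraries of its group, and it was also the highest of them for Ppp2r2c, Pik3ip1 and Rasgrp2, by smaller margins. The log2 ratio was 4.82 without restimulation and -3.69 with it. Without restimulated CTRL library 3 the second ratio was -2.24, and the CTRL mean then missed the minimum of 5 CPM. The restimulated ATRA libraries held 4, 3 and 5 counts, 12 over the group, with a Poisson interval of 0.108 to 0.366 CPM, so the size of the restimulated ratio depends on the 0.5 CPM added.

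Epithelial junction genes were read beside Cdh1, since E-cadherin also marks epithelial cells. Their list was drawn up after the 5 genes were known. Without restimulation the sum of its 7 listed genes lay between 4.98 and 7.99 CPM in the CTRL libraries and between 31.9 and 37.5 CPM in the ATRA libraries. With restimulation all 10 were listed, and their sum lay between 6.39 and 28.6 CPM in the CTRL libraries and between 32.7 and 42.3 CPM in the ATRA libraries. Krt18, a keratin of simple epithelia, was the junction gene that reversed as Cdh1 did: it rose from 0.143 ± 0.0901 to 5.77 ± 4.71 CPM with ATRA without restimulation (log2 fold change 5.43, SE 0.92, edgeR adjusted p = 0.00738) and fell from 1.34 ± 0.541 to 0.302 ± 0.176 CPM with restimulation (log2 -2.13, SE 0.60, edgeR adjusted p = 0.00827). Epcam, another epithelial adhesion gene, was higher with ATRA in both states (log2 1.98 and 1.87, edgeR adjusted p = 0.00831 and 0.000234). Tjp1, which encodes a tight junction scaffold, rose without restimulation (log2 3.00, SE 0.28, edgeR adjusted p = 0.00114), and its ratio with restimulation was not called (log2 1.54, SE 0.81, adjusted p = 0.173), but was without restimulated CTRL library 3 (log2 2.86, edgeR adjusted p = 6.14e-07). Krt8 was at most 0.346 CPM in every library, and Cldn3, Cldn4 and Esrp1 held at most 3 counts in each restimulated library. The part of other cells in the Cdh1 level was not tested.

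Sema4f had the smallest ATRA difference of the 5 genes in each state and the most even libraries (pooled SD 0.25 log2 units in each). Without restimulation it was at 6.51, 4.11 and 4.21 CPM in CTRL and at 21.9, 22.6 and 25.2 CPM in ATRA. With restimulation it was at 16.1, 18.5 and 18.3 CPM in CTRL and at 3.46, 2.19 and 3.58 CPM in ATRA. No library overlapped the other group of its state, and the log2 ratio was 2.12 and -2.34.

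**Figure D1:**
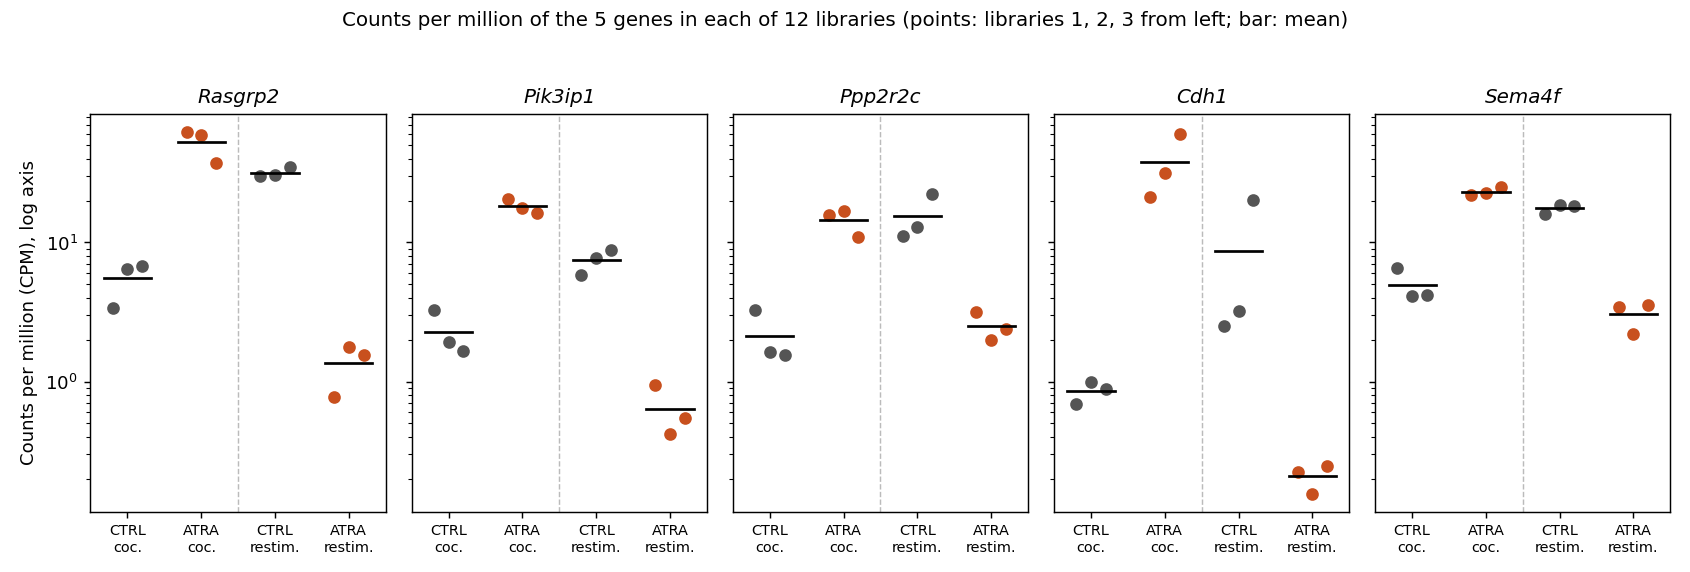
CPM of the 5 genes (1 panel each, log axis) in the 12 libraries, by group; points are libraries 1, 2 and 3 from left to right and bars are group means. In each panel the ATRA libraries lie above the CTRL libraries without restimulation (coc.) and below them with restimulation (restim.), and restimulated CTRL library 3 stands apart for Cdh1 at 20.2 CPM.

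The change that followed restimulation ran in opposite directions in CTRL and ATRA cells for each of the 5 genes. The log2 ratio of the restimulated mean to the mean before it was, in CTRL cells, 2.42 for Rasgrp2, 1.52 for Pik3ip1, 2.60 for Ppp2r2c, 2.75 for Cdh1 and 1.74 for Sema4f. In ATRA cells the same ratio was -4.84 for Rasgrp2, -4.04 for Pik3ip1, -2.32 for Ppp2r2c, -5.75 for Cdh1 and -2.73 for Sema4f. All 5 genes were thus higher after restimulation in CTRL cells and lower in ATRA cells, by more than a log2 unit in each. Over 9202 genes whose higher group mean reached 5 CPM in each state, the median ratio was 0.07 in CTRL and 0.10 in ATRA cells. A ratio of at least 1 in CTRL cells was found for 3.1% of those genes, a ratio of -1 or lower in ATRA cells for 10.9% and both together for 0.826% (76 genes). The rule fixes much of this pattern, and nothing is read from the counts.

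For Rasgrp2, Pik3ip1, Cdh1 and Sema4f the order of the 4 groups was the same: restimulated ATRA cells were lowest, then CTRL cells before restimulation, then restimulated CTRL cells, and ATRA cells before restimulation were highest. No neighbours in that order overlapped for these 4 genes. The step between the lowest pair was from 0.209 to 0.855 CPM in mean level for Cdh1, from 0.637 to 2.28 CPM for Pik3ip1, from 1.36 to 5.52 CPM for Rasgrp2 and from 3.07 to 4.94 CPM for Sema4f. For Ppp2r2c the lowest pair (2.14 and 2.51 CPM) and the highest pair (14.6 and 15.5 CPM) each overlapped.

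**Figure D2:**
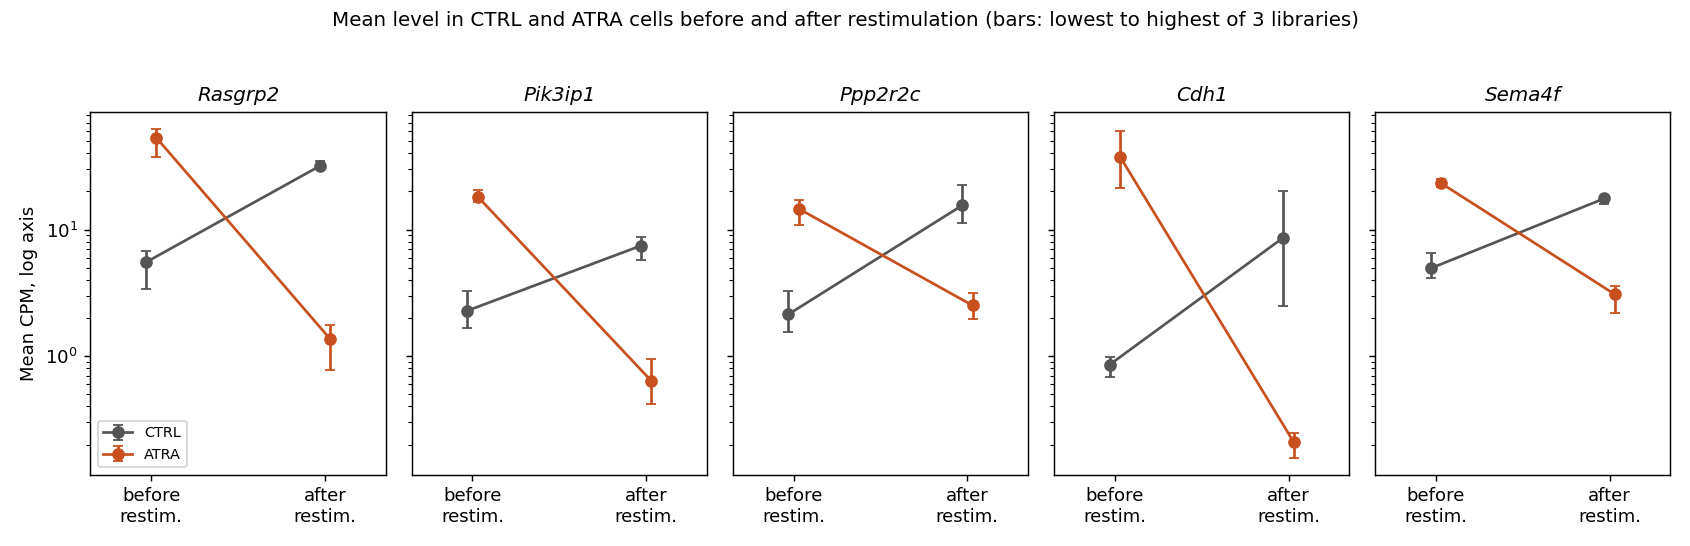
Mean CPM (log axis) of the 5 genes in CTRL and ATRA cells before and after restimulation, with bars from the lowest to the highest of 3 libraries. The lines cross in every panel: Rasgrp2 goes from 53.03 to 1.36 CPM in ATRA cells and from 5.52 to 31.8 CPM in CTRL cells.

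The deposited TPM values (transcript abundance, scaled by transcript length as well as library total) of the restimulated libraries allow levels to be compared between genes. On that scale Rasgrp2 was the most abundant of the 5 genes in restimulated CTRL cells, at 74.7 ± 4.17 TPM (SD, n = 3), and was at 3.28 ± 1.77 TPM in ATRA cells. Pik3ip1 was at 15.6 ± 2.29 TPM in CTRL and 1.88 ± 0.853 TPM in ATRA cells. Sema4f was at 6.46 ± 0.297 and 1.97 ± 1.79 TPM, Ppp2r2c at 4.53 ± 1.95 and 0.977 ± 0.378 TPM, and Cdh1 at 3.01 ± 3.55 and 0.0749 ± 0.0169 TPM. All ATRA columns were below all CTRL columns for each gene. The log2 ratio after adding 0.5 TPM was smaller in size than in CPM for Ppp2r2c (-1.77), Sema4f (-1.49) and Cdh1 (-2.61), and was -2.75 for Pik3ip1 and -4.31 for Rasgrp2. An addition of 0.5 weighs differently on the 2 scales. With nothing added, the ratio of CTRL to ATRA means in TPM and CPM was 40.2 and 41.3 for Cdh1. It was 4.64 and 6.17 for Ppp2r2c and 3.28 and 5.73 for Sema4f. One ATRA column, at 4.02 TPM against 0.719 and 1.17 TPM in the others, held much of the Sema4f mean.

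The values of genes next to the limits were as follows. Just inside lay Sema4f (2.12 and -2.34), Ppp2r2c (2.52 and -2.41) and Pik3ip1 (2.75 and -2.81), as log2 ratios without and with restimulation. Just outside lay Thra, a thyroid hormone receptor gene (2.27 and -1.97), Dapk2, a calmodulin-regulated kinase gene (1.92 and -1.94), and Ccr7, the chemokine receptor gene of lymph node homing (1.89 and -2.50). Of the 3 genes left out by name, Cxcr4 had group means of 9.36 CPM (CTRL) and 281.8 CPM (ATRA) without restimulation and 115.7 and 17.9 CPM with it. S1pr1, the receptor gene for exit from lymphoid organs, had 15.3 and 67.5 CPM and then 77.8 and 8.20 CPM. Pygl had 6.92 and 157.7 CPM and then 9.81 and 1.87 CPM.

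The criteria of each state were also counted on their own. The criteria for higher levels with ATRA without restimulation were met by 198 genes (1.55% of 12771) and those for lower levels with restimulation by 355 genes (2.78%). The 8 genes, which are in both counts, are 4.04% of the former, beside 2.78% of all 12771. They are 2.25% of the latter, beside 1.55% of all 12771. The mirror pattern, lower with ATRA without and higher with restimulation, was met by 32 genes (0.251%). The comparisons of the 2 states use separate controls.

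**Figure D3:**
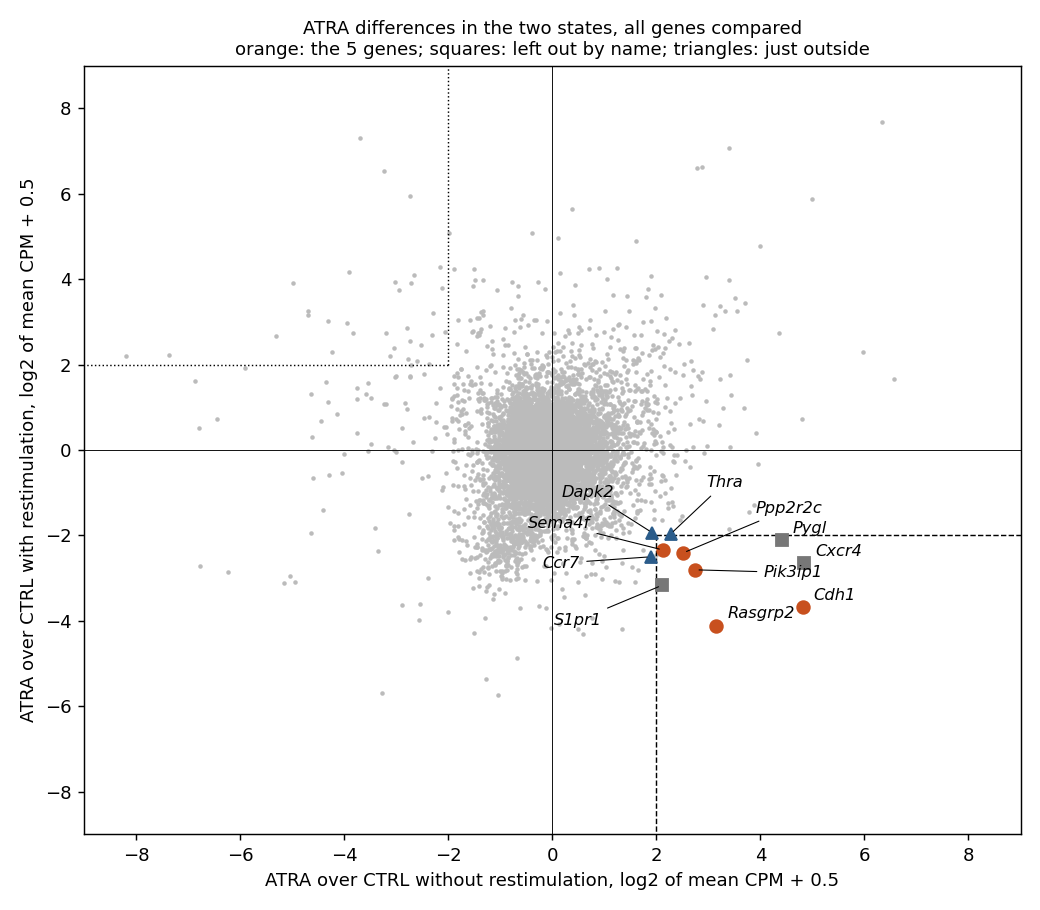
Log2 ratio of ATRA to CTRL mean CPM (0.5 CPM added) without restimulation (x axis) and with it (y axis). Each grey point is a gene whose higher group mean reached 5 CPM in each state. Dashed lines bound the region of the rule and dotted lines its mirror; the 5 genes are orange, with Rasgrp2 at 3.15 and -4.11 and Cdh1 at 4.82 and -3.69.

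Membership depended on the limits. At a log2 limit of 1 the rule took 84 genes and at a limit of 3 it took 2, Cdh1 and Rasgrp2. With a minimum of 10 CPM, 3 of the 5 genes remained (Cdh1 and Pik3ip1 did not). With TPM in place of counts for the restimulated state, 2 remained (Pik3ip1 and Rasgrp2). There the minimum was 5 TPM, which the CTRL means of Cdh1 (3.01 TPM) and Ppp2r2c (4.53 TPM) missed. The ratios of Ppp2r2c and Sema4f missed the log2 limit. When the 2 libraries that stood apart were left out, all 5 remained and 7 other genes joined them, among them Ccr7 and the interferon-induced Oas3. The ratios without restimulation were then 4.22 for Cdh1, 3.10 for Pik3ip1, 3.02 for Ppp2r2c, 3.11 for Rasgrp2 and 2.29 for Sema4f.

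Relatives and partners of the 5 genes were tested with edgeR, a negative binomial model fitted to all genes, with Benjamini-Hochberg adjustment over all of them; a gene is said to have risen or fallen where the adjusted p was under 0.05. Their families were drawn up by membership after the 5 genes were known, and the 5 genes and the 3 left out are in no count. ATRA was called against CTRL for 33.6% of 12111 genes without restimulation (18.1% higher, 15.5% lower) and for 62.6% of 12783 with it (31.8% higher, 30.8% lower). The difference of the effects, tested as an interaction over all 12 libraries, was called for 49.2% of 12364 genes (25.5% in the direction of a more positive effect without restimulation, 23.6% in the other). A rise without and a fall with restimulation was called for 5.51% of 11369 genes, and the mirror for 6.02%. With the 2 libraries that stood apart left out, 4015 of 12252 genes were called higher and 3965 lower without restimulation. The interaction was then positive for 3867 and negative for 3595 of 12458 genes.

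In the family of Rasgrp2 (RasGRP exchange factors and the Rap1 integrin pathway), 5 of 15 tested genes rose and 3 fell without restimulation, and 8 of 16 rose and 6 fell with it. The median log2 fold change was 0.01 and 0.17, beside 0.01 and 0.02 over all genes tested. Rasgrp1, the Ras exchange factor of T cell receptor signalling, rose without restimulation from 94.0 ± 13.6 to 277 ± 7.60 CPM (log2 1.65, SE 0.11, edgeR adjusted p = 0.000459) and fell with it from 131 ± 34.5 to 53.5 ± 3.77 CPM (log2 -1.27, SE 0.18, adjusted p = 0.000529); the interaction was 2.92 (SE 0.23, edgeR adjusted p = 1.09e-06). Rasa3, which inactivates Ras and Rap1, also rose and then fell (log2 1.06 and -1.04, edgeR adjusted p = 0.00545 and 1.24e-05), as did Sipa1, a Rap1-inactivating protein (0.71 and -0.51, edgeR adjusted p = 0.0418 and 0.000403); the rise of Sipa1 was not called with the batch as a block (edgeR adjusted p = 0.0551) or without any 1 of 4 libraries (edgeR adjusted p = 0.0690 to 0.136). The exchange factor genes Rasgrp4 and Rasgrp3 did not show this pattern: Rasgrp4 rose in both states (4.08 and 1.05, edgeR adjusted p = 0.000278 and 0.00374), and Rasgrp3 was at most 0.231 CPM in every library but the restimulated ATRA ones, where it was at 22.7 ± 2.59 CPM (edgeR adjusted p = 8.73e-09). Talin (Tln1) and the LFA-1 chain gene Itgal, downstream of Rap1, had log2 fold changes between -0.33 and 0.20 in the 2 states, with a fall of Itgal without restimulation (edgeR adjusted p = 0.0432, 0.131 with the block and 0.0685 to 0.140 without any 1 of 5 libraries) and a rise of Tln1 with it (edgeR adjusted p = 0.0101, and 0.0506 without restimulated ATRA library 1).

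In the family of Pik3ip1 (class I PI3K and its regulators), 7 of 16 tested genes rose and 2 fell without restimulation, and 4 of 17 rose and 7 fell with it. The interaction was called in the positive direction for 10 of 17 genes and in the negative for 3. Pik3cd, the catalytic subunit gene of leukocytes, rose from 288 ± 37.6 to 488 ± 11.2 CPM without restimulation (log2 0.85, SE 0.12, edgeR adjusted p = 0.0038) and fell from 169 ± 19.1 to 109 ± 1.71 CPM with it (log2 -0.61, SE 0.09, edgeR adjusted p = 5.7e-05). Pik3ca did the reverse (-0.41 and 0.35, edgeR adjusted p = 0.0163 and 0.000365), with the fall not called with the block (edgeR adjusted p = 0.0609) or without any 1 of 3 libraries (edgeR adjusted p = 0.0614 to 0.0737).

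Among protein phosphatase 2A subunits, the family of Ppp2r2c, 0 of 14 rose and 3 fell without restimulation at an edgeR adjusted p under 0.05, and 5 of 13 rose and 2 fell with it. The first count was not stable: without the 2 libraries that stood apart 3 of 14 rose and 4 fell, at an unadjusted p edgeR had 1 that rose, and DESeq2 called 0. Ppp2r5d, the gene at that unadjusted p, had a log2 fold change of 0.28 without restimulation (edgeR adjusted p = 0.0669, and 0.0150 without the 2 libraries) and fell with it (-1.47, edgeR adjusted p = 6.47e-08). Other genes of the B55 family are Ppp2r2a, Ppp2r2d and Ppp2r2b. Ppp2r2a had a log2 fold change of -0.20 without restimulation (edgeR adjusted p = 0.0950, and 0.0239 without the 2 libraries that stood apart, at -0.16) and rose by 0.42 with it (edgeR adjusted p = 0.000846). Ppp2r2d fell without restimulation (-0.34, edgeR adjusted p = 0.0397) and was not called with it (-0.21, edgeR adjusted p = 0.224). Ppp2r2b was at 0 in all restimulated libraries. Ppp2r5b, a subunit of another regulatory family, fell without and rose with restimulation (-0.57 and 1.09, edgeR adjusted p = 0.0404 and 5.67e-06). With the block the falls of Ppp2r2d and Ppp2r5b were not called (edgeR adjusted p = 0.0987 and 0.0720), nor was either without any 1 of 4 libraries (edgeR adjusted p = 0.0688 to 0.150). Ppp2r2c overlaps its antisense gene Ppp2r2cos and, on the same strand, Gm42506 in the annotation. The strand setting of the counts is not given, so reads of Ppp2r2c and Ppp2r2cos may not be told apart, and the setting would not separate those of Gm42506. The antisense overlap also holds for Rasgrp2 with Gm14965 and for Pik3ip1 with Gm12592.

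In the family of Sema4f (class 4 semaphorins, plexins and other receptors), 6 of 13 tested genes rose and 2 fell without restimulation, and 6 of 13 rose and 4 fell with it. Sema4d, the abundant T cell member, rose in both states by small amounts (log2 0.64 and 0.23, edgeR adjusted p = 0.0243 and 0.0245), the first of which was not called with the batch as a block (edgeR adjusted p = 0.0515) or without any 1 of the CTRL libraries (edgeR adjusted p = 0.0525 to 0.0945). The rise with restimulation was not called without any 1 of 3 libraries (edgeR adjusted p = 0.0593 to 0.0932). Its interaction was not called (0.42, SE 0.19, edgeR adjusted p = 0.0891), but was without the 2 libraries that stood apart (0.26, edgeR adjusted p = 0.0466) and without ATRA library 1 of the first state (0.53, edgeR adjusted p = 0.0331). Sema4a, a semaphorin of activated immune cells, lay between 88.1 and 123 CPM in CTRL and between 9.34 and 78.2 CPM in ATRA libraries without restimulation, which was not called (log2 -1.03, SE 0.63, edgeR adjusted p = 0.235), and fell from 116 ± 12.4 to 1.67 ± 0.322 CPM with it (log2 -6.10, SE 0.16, edgeR adjusted p = 5.94e-11). Without the 2 libraries that stood apart, Sema4a was called lower without restimulation (log2 -0.36, edgeR adjusted p = 0.0152). The plexin genes Plxna3 (1.46 and -2.48, edgeR adjusted p = 0.000673 and 1.21e-05) and Plxnb2 (1.19 and -1.17, edgeR adjusted p = 0.00269 and 3.38e-06) rose and then fell.

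Among partners, regulators and receptors of E-cadherin, 5 of 13 tested genes rose and 3 fell without restimulation, and 5 of 12 rose and 2 fell with it. The number that rose and then fell was 0 with edgeR, also at an unadjusted p under 0.05, and 0 with DESeq2. The catenin genes Ctnnb1 and Ctnna1, whose products link E-cadherin to actin, had log2 fold changes of 0.06 and -0.24 without restimulation, neither of them called (edgeR adjusted p = 0.567 and 0.0915; without the 2 libraries that stood apart Ctnna1 was called lower, at -0.15, edgeR adjusted p = 0.0478). With restimulation Ctnnb1 rose (0.36, edgeR adjusted p = 0.000732) and Ctnna1 was not called (0.10, edgeR adjusted p = 0.204). Jup, also in this family, was not called without restimulation (-0.49, edgeR adjusted p = 0.546), but its interaction was (1.94, edgeR adjusted p = 0.0474). The interaction call was lost without any 1 of several single libraries (edgeR adjusted p = 0.0599 to 0.104). Without the 2 libraries that stood apart Jup was called lower (-1.63, edgeR adjusted p = 0.000127) and its interaction was not called (0.77, edgeR adjusted p = 0.138). Zeb2, a regulator in this family, fell from 176 ± 13.3 to 104 ± 8.22 CPM without restimulation (log2 -0.66, SE 0.13, edgeR adjusted p = 0.0112). With restimulation Zeb2 rose from 117 ± 10.4 to 299.6 ± 7.18 CPM (log2 1.37, SE 0.07, edgeR adjusted p = 1.32e-08). The fall was not called without CTRL library 3 (edgeR adjusted p = 0.0533). Zeb1, a relative of Zeb2 and a regulator in the same family, rose in both states (0.55 and 0.94, edgeR adjusted p = 0.0281 and 2.46e-05). The first rise was not called without any 1 of 3 libraries (edgeR adjusted p = 0.0797 to 0.0850). Snai1, another regulator in this family, rose without restimulation (log2 1.65, edgeR adjusted p = 0.0205). That call was lost with the block (edgeR adjusted p = 0.0659) or without any 1 of several libraries (edgeR adjusted p = 0.0538 to 0.0906). Of the chains of the E-cadherin receptor CD103, Itgb7 rose without restimulation from 49.0 ± 2.77 to 526 ± 67.5 CPM (log2 3.52, SE 0.17, edgeR adjusted p = 0.000181) and was not called with it (0.09, SE 0.11, adjusted p = 0.490). Itgae rose without restimulation (3.47, SE 0.89, edgeR adjusted p = 0.0264), with ATRA libraries from 1.71 to 15.5 CPM, and the call was lost when any 1 of the CTRL libraries was left out (edgeR adjusted p = 0.0810 to 0.0969). With restimulation Itgae was also called higher (0.65, SE 0.24, edgeR adjusted p = 0.0381), a call lost without any 1 of 4 libraries (edgeR adjusted p = 0.0969 to 0.130). Without the 2 libraries that stood apart, the genes that rose and fell without restimulation were 7 and 5 of 15 in the family of Rasgrp2, 9 and 2 of 16 in that of Pik3ip1, 8 and 4 of 14 in that of Sema4f and 5 and 5 of 13 among the E-cadherin genes. Over all genes in that setting, 4015 rose and 3965 fell of 12252.

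**Figure D4:**
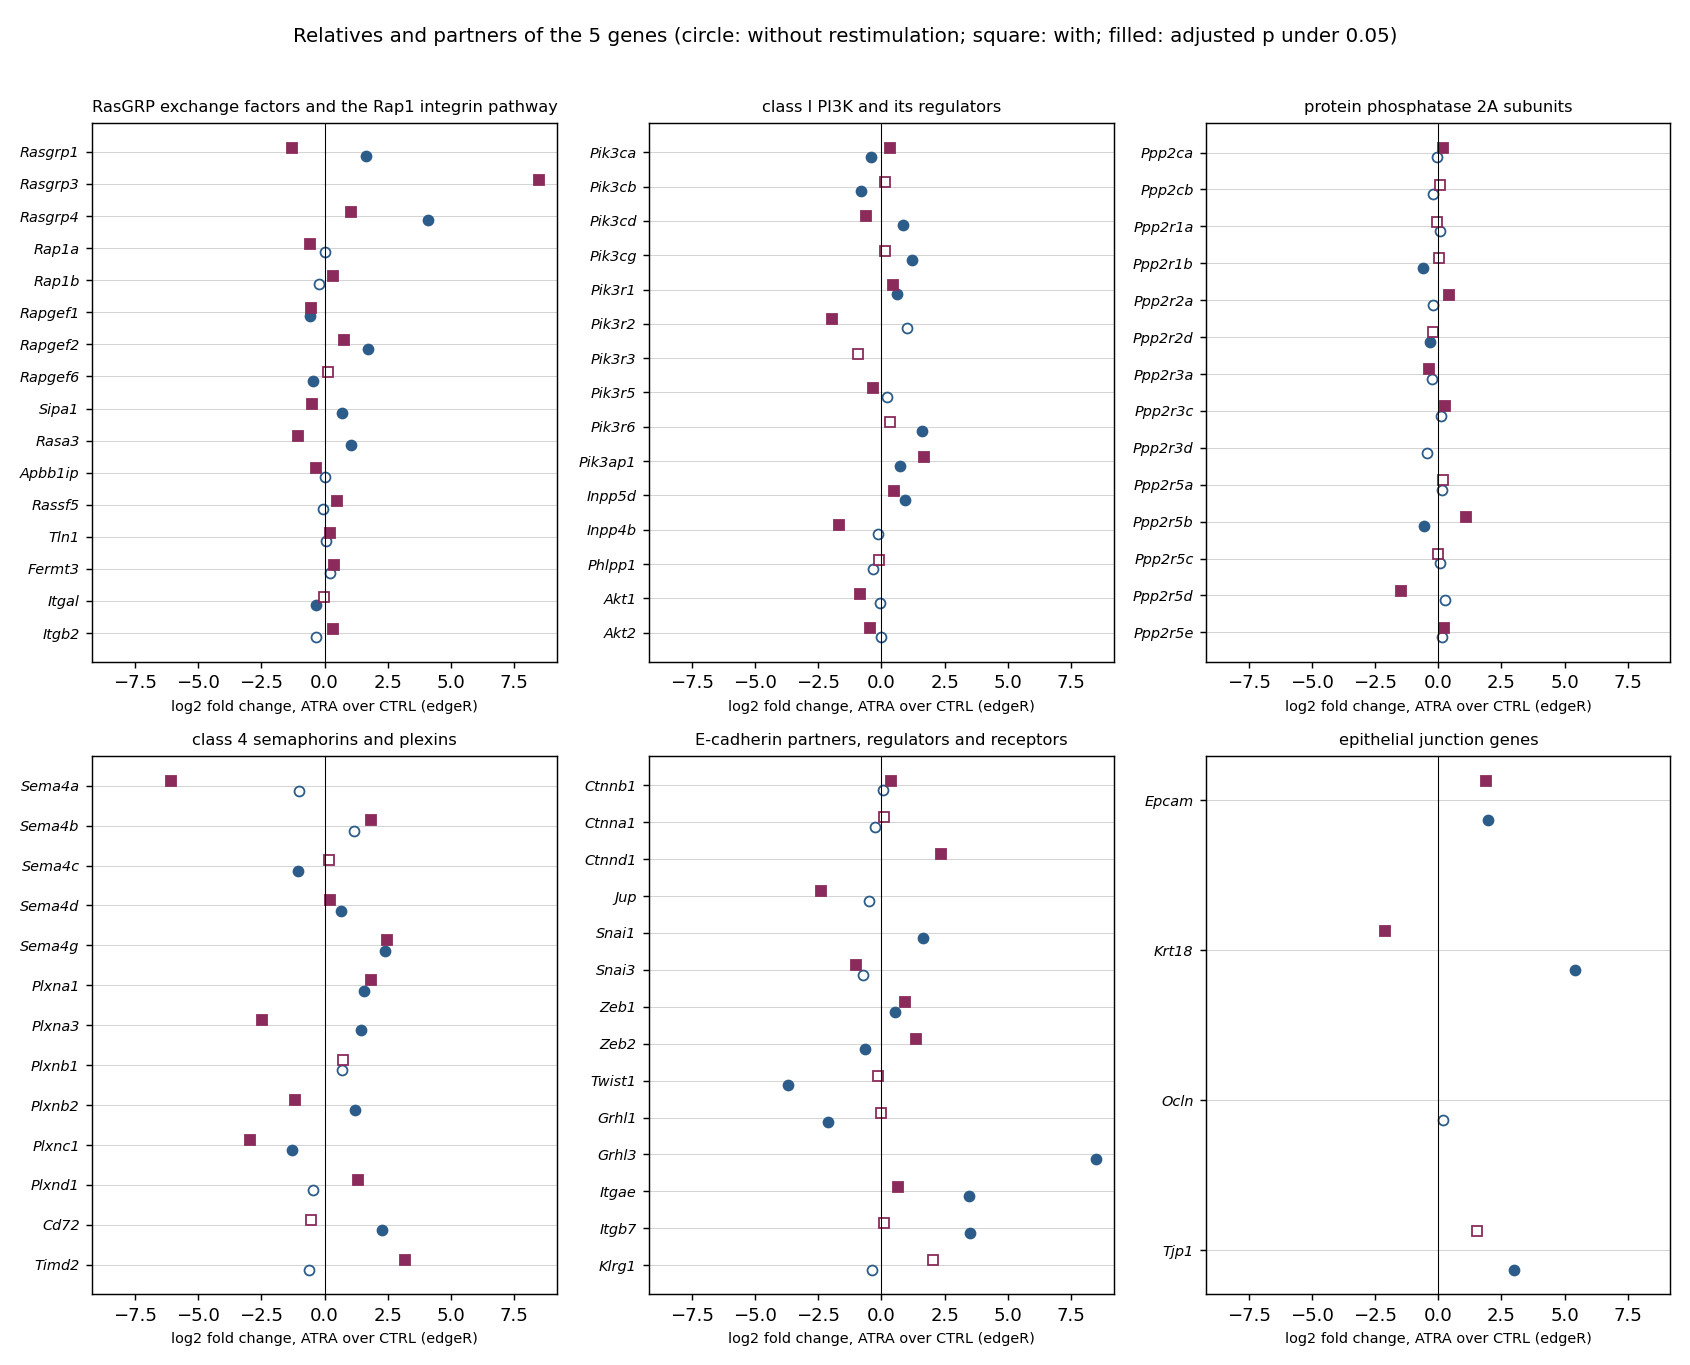
edgeR log2 fold change of ATRA over CTRL for relatives and partners of the 5 genes, without (circles) and with restimulation (squares); filled symbols have an adjusted p under 0.05, and some tested genes are not drawn. Rasgrp1, Rasa3, Pik3cd, Plxna3 and Plxnb2 have filled circles to the right of 0 and filled squares to its left, and Zeb2 the opposite. Zeb1 has both symbols filled to the right of 0.

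Broader lists were read in the same way for the 4 genes that they hold; Ppp2r2c is in none. Beside Rasgrp2 and Pik3ip1, the list of quiescence and recirculation genes had 17 of 31 tested genes that rose and 3 that fell without restimulation, and 12 of 29 that rose and 11 that fell with it. Its median log2 fold change was 0.72 and 0.14. Of its genes, 2 fell and then rose, Bach2 and Slfn2, and 6 rose and then fell. Among the 6 was Lef1, a transcription factor of naive and memory T cells, which went from 63.2 ± 7.01 to 119 ± 15.8 CPM and from 105 ± 8.25 to 30.1 ± 0.680 CPM (log2 1.00 and -1.78, edgeR adjusted p = 0.00147 and 6.97e-09). Klf2, the factor that drives S1pr1, rose without restimulation from 0.271 ± 0.204 to 5.15 ± 1.74 CPM (log2 4.29, SE 0.53, edgeR adjusted p = 0.0027), was at most 1.02 CPM in each restimulated library, and its interaction was 5.06 (SE 0.91, edgeR adjusted p = 0.000689). Foxo1, a factor upstream of Klf2, rose in both states (1.89 and 1.44, edgeR adjusted p = 0.00613 and 6.11e-07), and its interaction was not called (0.46, SE 0.35, edgeR adjusted p = 0.305). Without the 2 libraries that stood apart, 24 of 32 genes of the list rose and 7 fell without restimulation, beside 4015 and 3965 of all 12252 genes.

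Beside Rasgrp2 and Pik3ip1 in the list of G protein, MAPK and PI3K regulators, 27 of 66 tested genes rose and 14 fell without restimulation, and 34 of 65 rose and 21 fell with it. In this list 9 genes rose and then fell and 10 fell and then rose. Arhgef18, which encodes a guanine nucleotide exchange factor, rose from 10.4 ± 0.737 to 27.1 ± 3.48 CPM and fell from 53.5 ± 1.66 to 2.43 ± 0.366 CPM (log2 1.46 and -4.43, edgeR adjusted p = 0.000878 and 2.18e-10). Rgs2, which dampens G protein signals, fell from 25.4 ± 6.73 to 6.47 ± 0.463 CPM and rose from 4.92 ± 0.901 to 102 ± 2.18 CPM (log2 -1.90 and 4.39, edgeR adjusted p = 0.00265 and 1.9e-10). Spred1, an inhibitor of the Ras-MAPK route, also fell and then rose (-1.51 and 2.84, edgeR adjusted p = 0.00288 and 7.93e-10).

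Beside Cdh1 in the list of integrins and adhesion genes, 18 of 51 tested genes rose and 14 fell without restimulation, and 27 of 52 rose and 12 fell with it. Itga4, the integrin chain that pairs with Itgb7, rose from 109 ± 18.4 to 256 ± 22.6 CPM and fell from 525 ± 40.9 to 126 ± 1.20 CPM (log2 1.33 and -2.05, edgeR adjusted p = 0.00242 and 3.29e-10). Crtam, an adhesion receptor of activated CD8+ T cells, fell from 274 ± 47.8 to 19.7 ± 2.14 CPM and rose from 38.8 ± 3.95 to 88.7 ± 2.35 CPM (-3.72 and 1.21, edgeR adjusted p = 0.000181 and 3.17e-07). In all, 6 genes of the list rose and then fell and 10 fell and then rose.

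Beside Sema4f in the list of actin, myosin and migration genes, 22 of 85 tested genes rose and 20 fell without restimulation, and 31 of 83 rose and 28 fell with it. Sema7a, a membrane-anchored semaphorin gene, ran opposite to Sema4f: it fell from 277 ± 20.9 to 39.7 ± 1.24 CPM and rose from 64.4 ± 11.3 to 469.9 ± 23.3 CPM (log2 -2.72 and 2.88, edgeR adjusted p = 0.00018 and 1.21e-08). Vcl, which encodes vinculin, fell and then rose (-2.44 and 0.77, edgeR adjusted p = 0.000325 and 2.42e-05), and Pdlim1, an actin-associated adaptor gene, rose and then fell (1.01 and -2.07, edgeR adjusted p = 0.00374 and 9.18e-08). In all, 6 genes of the list rose and then fell and 10 fell and then rose. Without the 2 libraries that stood apart, 38 of 87 genes rose and 29 fell without restimulation in this list, 36 of 67 rose and 19 fell among the regulators, and 23 of 51 rose and 19 fell among the adhesion genes. Over all genes in that setting, 4015 rose and 3965 fell of 12252.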

How the data were processed

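Stranded total RNA libraries of sorted live CD45.2+ OT-I cells, 12 in all, formed 4 groups of 3. The authors deposited whole-number counts per gene symbol in 2 tables, 1 per state, with 13948 and 35588 rows (32 repeated symbols; the one with the largest total was kept), and 1 table for the restimulated libraries whose columns show the treatment but not the library. That deposited table holds TPM, made by the authors by a step the labels do not describe. The submitters' processing notes list mm39, DESeq2 1.42.1, Salmon 1.10.3, STAR 2.7.11b and cutadapt 5.0, and neither their roles nor strand setting or annotation is given in the sources used here. Sequences came from RefSeq on GRCm38.p6 and overlaps from an annotation of the same build, so they serve as a description.

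CPM were computed from library totals. Counts were fitted with edgeR 4.0.16 in R 4.3.3 (filterByExpr, TMM, robust quasi-likelihood, Benjamini-Hochberg) within each state and, for the interaction, over all 12 libraries; DESeq2 1.42.0 was an alternative. The fits were tested on simulated data. Replicate numbers mark a shared batch in the labels and so pair CTRL and ATRA libraries of a state; same-numbered deviations from group means correlated at 0.10, -0.04 and 0.06 without and -0.03, -0.10 and 0.08 with restimulation. No pair of libraries agreed within sampling noise (smallest chi-square per degree of freedom 3.94). The genes, lists and families were chosen with earlier results of these data known. Genes other than the 5 were named as the 3 with the smallest interaction p in each list that holds one of the 5, plus up to 2 partners per list; the relatives named from the families were picked after their values were seen. Alternatives left out libraries or changed scaling, pseudocount, filter, limits or tool. Some genes of these families are counted but not reported here by name.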

Additional observations from a re-analysis of the deposited data

Results flagged for a closer look

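The ATRA effect without restimulation differed from that with it for each gene below, given as the difference of the log2 ratios. For the genes taken by the rule this difference follows from the rule and was not tested: it was 8.50 for Cdh1, 7.27 for Rasgrp2, 5.56 for Pik3ip1, 4.93 for Ppp2r2c and 4.47 for Sema4f, and 7.50 for Cxcr4 and 5.28 for S1pr1.

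For the other named genes the difference was the edgeR interaction, called at an adjusted p under 0.05. It was positive for Arhgef18 (5.90), Sema4a (5.07), Klf2 (5.06), Itgb7 (3.43), Itga4 (3.38), Pdlim1 (3.09), Rasgrp1 (2.92), Itgae (2.83), Lef1 (2.78) and Pik3cd (1.47). It was negative for Rgs2 (-6.29), Sema7a (-5.60), Crtam (-4.93), Spred1 (-4.35) and Vcl (-3.20). The call for Itgae was lost without any 1 of 6 single libraries and without both libraries that stood apart (1.26, edgeR adjusted p = 0.0995).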

How the results depend on the processing

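No ratio of the 5 genes changed direction under any setting tried. The rule asks for ratios past 2 log2 units and no overlap of libraries, so this was largely fixed in advance. The rule took 5 genes; it took 3 at a minimum of 10 CPM, 84 at a log2 limit of 1, 2 at a limit of 3 and 2 with TPM for the restimulated state. Chosen after seeing the data, leaving out both libraries that stood apart gave 12 genes, and TPM with no minimum gave 4. Those 4 were 3 of the 5 genes and Ckmt1, without Ppp2r2c and Sema4f. Leaving out single libraries gave 5 to 7 genes. Genes called without restimulation numbered 4071, between 1613 and 5617 with single libraries left out and 7980 without both that stood apart; the cause was not tested. With the replicate block (the batch that pairs CTRL and ATRA libraries) 2892 genes were called without restimulation, 7751 with it and 5403 for the interaction. The calls without restimulation of Sema4d, Sipa1, Snai1, Itgal, Pik3ca, Pik3ap1, Ppp2r2d and Ppp2r5b were then lost. Pik3ap1 (edgeR adjusted p = 0.0555 with the block) is among the genes counted as risen in the family of Pik3ip1. Itgb7 with restimulation, not called, changed sign without CTRL restimulated replicate 1 (log2 -0.0175, edgeR adjusted p = 0.876) and was called without replicate 3 (0.238). Depth limits the low groups: restimulated ATRA cells held 12 counts of Cdh1 and 36 of Pik3ip1, so their ratios move with the pseudocount, Cdh1 to -2.99 at 1 CPM and -4.82 at 0.1 CPM.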

Other observations

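Most of the genes induced by T cell activation rose with ATRA in the restimulated state. Of 50 tested, 18 fell and 8 rose with ATRA without restimulation, and 42 rose and 4 fell with it (edgeR adjusted p under 0.05), and 38 had a negative interaction against 3 with a positive one, beside 23.6% and 25.5% of all genes. In all, 15 of them fell and then rose, among them the nuclear receptor genes Nr4a1, Nr4a2 and Nr4a3 and the feedback inhibitor genes Spry1, Spry2 and Spred1, and 1, Batf3, rose and then fell. Without the 2 libraries that stood apart, 19 rose and 22 fell without restimulation, and 42 had a negative interaction. Over all genes in that setting, 4015 rose and 3965 fell of 12252, and 3595 of 12458 had a negative interaction. The list was chosen with earlier results of these data known.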
